A study of Homo sapiens with 16 samples.

Results

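HCC70 is an established human breast cancer line of the basal-like type. The experiment described here lowered EZH2 in it with a short hairpin RNA (shRNA) and read the transcriptome on Affymetrix Human Gene 1.0 ST arrays. EZH2 is the enzyme of Polycomb repressive complex 2 (PRC2), which methylates lysine 27 of histone H3 and keeps genes silent, often at CpG-rich promoters of developmental regulators. EED and SUZ12 are its core partners, and loss of the enzyme typically derepresses a set of genes that differs from one cell type to another. In breast cancer EZH2 is abundant in basal-like tumors and has been studied for its part in cell identity and growth.

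The experiment held 4 of the 16 arrays of the series. They were chosen by label as HCC70 cells stably infected with shRNA against EZH2 (shEZH2, replicates 1 and 2) and HCC70 cells stably infected with a scrambled shRNA (shCont, replicates 1a and 2a). A second scrambled set in the same line (shCont, replicates 1b and 2b) and HCC70 cells carrying the empty vector plKO Puro (2 arrays) served as further controls. All of these cells were infected with viral supernatant and kept under puromycin, and the labels do not say whether any of them was a clone. They also do not say how many hairpins against EZH2 were used, nor whether duplicates were separate cultures, so p-values measure the spread between duplicate arrays, which may be technical. The scrambled set that belongs to this knockdown is not named in the labels: set a was used as the control and set b as a check of every change.

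Values are log2 signals of transcript clusters after robust multi-array averaging (RMA), so a difference of 1 is a 2-fold change in signal. Of 33297 clusters, 16175 reached log2 6 on at least 2 of the 16 arrays and were tested, 11712 of them with exactly 1 gene symbol, which stood for 11145 genes. A change was called at an adjusted p under 0.05 by limma with the Benjamini-Hochberg adjustment. Array medians lay between 5.37 and 5.53, and duplicates correlated at 0.994 to 0.997 in the HCC70 groups used here. The cells had the profile of an epithelial line: all 9 measured epithelial markers reached the floor in shEZH2 and in both scrambled sets, against 1 of 12 fibroblast markers (COL1A1) and 3 of 13 leukocyte markers (CD14, TYROBP and NKG7). PTPRC, which all leukocytes express, stayed at 3.31 in shEZH2, 3.32 in shCont a and 3.33 in shCont b.

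The hairpin lowered its target. EZH2 measured 8.50 and 8.58 on the shEZH2 arrays, against 10.01 and 10 on the shCont a arrays, 10.08 and 10.06 on the shCont b arrays and 9.94 and 9.94 on the empty vector arrays. The groups did not overlap, and the fall was 1.47 ± 0.07 against set a (log2, standard error, n = 2 arrays per group, limma adjusted p = 3.35e-07), a 2.76-fold lower signal. EED measured 8.62 and 8.58 in shEZH2 cells, between 8.77 and 8.67 in shCont a and 8.35 and 8.31 in shCont b, and was called against neither set (limma adjusted p = 0.532 against set a and 0.0795 against set b). Of 13 PRC2 core and accessory subunits tested, only EZH2 was called against set a, and 5, EZH2 among them, were called lower against set b. None of 20 histone demethylases and DNA methylation enzymes was called against set a by limma, while 2 were higher and 3 lower than in set b. Over all 11145 genes tested, 12.8% were called against set a, and 1394 were higher and 1975 lower against set b.

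Against set a, 1837 of 16175 clusters were called (11.4%), 1181 of them higher in shEZH2 (7.3%) and 656 lower (4.06%). Against set b the count was 4325 (26.7%), with 1834 higher (11.3%) and 2491 lower (15.4%). The scrambled sets were themselves unlike: shCont a and shCont b differed from each other in 3677 clusters (22.7%), 1198 higher in a (7.41%) and 2479 lower (15.3%). Both comparisons use the same shEZH2 arrays and are not independent. In the same direction against both sets, 1018 clusters were called (6.29%), 602 higher (3.72%) and 416 lower (2.57%). A further 81 clusters were called in opposite directions, 60 of them higher than set a and lower than set b. Against the empty vector 3977 clusters were called (24.6%), 2225 higher (13.8%) and 1752 lower (10.8%), and that contrast also called 453 of the 602 higher and 288 of the 416 lower clusters, with 6 called the other way. Without shCont a replicate 1 or replicate 2 the count against set a was 767 or 688, and the same-direction count 494 or 468. Without shCont b replicate 1 or replicate 2 the count against set b was 2195 or 2337, and the same-direction count 628 or 639. In these runs the remaining control array was taken to vary like the other groups.

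Relatively few changes were large. At least a 2-fold difference from both scrambled sets was reached by 61 clusters that were higher in shEZH2 and 38 that were lower. Both shEZH2 arrays lay outside the range of all 6 HCC70 control arrays for 898 of the 1018 same-direction clusters (5.55% of all tested), 543 of them higher (3.36%) and 355 lower (2.19%). Over all 16175 clusters, called or not, 3452 met this criterion (21.3%), 1954 higher (12.1%) and 1498 lower (9.26%). Among the genes named next, ranked by the smaller of their changes against set a and set b, all 15 higher and all 15 lower ones lay outside that range. The calls and the ranking used the same scrambled arrays, so the counts among called and ranked genes follow largely from the choice.

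TRPA1, a cation channel opened by irritants, measured 6.83 and 6.35 in shEZH2 cells, against 3.99 and 4.11 in shCont a, 3.94 and 4.23 in shCont b and 4.13 and 4.36 with the empty vector. It was dim in every control and passed the floor of log2 6 only in shEZH2, so it entered the test only through those arrays. It rose by 2.54 ± 0.15 (limma adjusted p = 1.77e-06, 5.8-fold) against set a and 2.50 against set b. Its neighbor on chromosome 8, MSC, which encodes the transcription factor musculin, rose by 1.44 against set a and 1.41 against set b; it was looked up after TRPA1 had been seen. SLCO2A1, the prostaglandin transporter, measured 8.03 and 7.75, against 5.84 and 5.64 in shCont a, 5.24 and 5.14 in shCont b and 5.27 and 5.16 with the empty vector. Its rise was 2.15 ± 0.16 against set a (limma adjusted p = 6.78e-06) and 2.71 against set b. ELOVL7, an elongase of long-chain fatty acids, measured 6.52 and 6.24, against 4.59 and 4.30 in shCont a, 4.37 and 4.21 in shCont b and 3.95 and 4.20 with the empty vector, a rise of 1.93 ± 0.13 against set a (limma adjusted p = 2.64e-06).

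SPOCK1, a matrix proteoglycan of the testican family, measured 7.78 and 7.34 in shEZH2, against 5.63 and 5.70 in shCont a, 4.66 and 4.57 in shCont b and 4.76 and 4.83 with the empty vector. The scrambled sets differed by about 1 log2 unit, and shEZH2 lay above both by 1.90 ± 0.13 and 2.94 (limma adjusted p = 3.85e-06 and 7.87e-08). CLMP, an adhesion molecule of epithelial junctions, showed the same order: 8.24 and 8.27 in shEZH2, 6.74 and 6.60 in shCont a, 5.67 and 5.86 in shCont b. NT5E (CD73), the surface enzyme that forms adenosine from AMP, measured 7.57 and 7.06, against 5.54 and 5.90 in shCont a and 5.63 and 5.56 in shCont b, a rise of 1.59 ± 0.18 (limma adjusted p = 0.000179). CLEC3A, a C-type lectin known from cartilage, rose by 2.06 against set a, 1.83 against set b and 1.17 against the empty vector, where it stood at 5.33 and 5.64. OLFML3, a secreted olfactomedin-like protein, rose by 1.54 and 1.75. BASP1, a membrane-bound protein that is also a WT1 cosuppressor, was bright throughout, at 9.78 and 9.60 in shEZH2 against 7.82 and 7.91 in shCont a and 8.08 and 8.14 in shCont b.

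LHX9 and S100A8 are shown with their promoters because they contrast in CpG content. LHX9, a LIM homeodomain transcription factor of gonad, limb and brain development, measured 6.95 and 6.71 in shEZH2, against 5.13 and 5.22 in shCont a, 5.02 and 5.24 in shCont b and 5.12 and 5.05 with the empty vector. All 6 controls sat close together below the floor, and the rise was 1.65 ± 0.12 against set a (limma adjusted p = 6.78e-06) and 1.70 against set b. Like TRPA1, SPOCK1 and CLEC3A, LHX9 entered the test only through the shEZH2 arrays, so only a rise could be found. S100A8, a subunit of the calcium-binding antimicrobial dimer calprotectin, measured 10.66 and 10.65, against 8.99 and 8.92 in shCont a, 8.78 and 8.76 in shCont b and 7.97 and 8.08 with the empty vector, a rise of 1.70 ± 0.13 (limma adjusted p = 7.04e-06). The windows below run from 250 bases before to 50 bases after the gene's start in RefSeq (build GRCh38.p14), 5′ to 3′ on the gene's strand, with CpG dinucleotides in capitals. LHX9 lies at chr1:197912214-197912513 on the plus strand and holds 23 CpG. S100A8 lies at chr1:153391139-153391438 on the minus strand and holds 2.
LHX9: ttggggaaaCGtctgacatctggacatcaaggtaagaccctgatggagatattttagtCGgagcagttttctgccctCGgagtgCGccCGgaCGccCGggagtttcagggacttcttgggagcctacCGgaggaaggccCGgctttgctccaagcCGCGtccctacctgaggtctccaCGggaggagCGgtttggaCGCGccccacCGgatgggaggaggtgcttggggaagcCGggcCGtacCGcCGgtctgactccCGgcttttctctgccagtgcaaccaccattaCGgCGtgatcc
S100A8: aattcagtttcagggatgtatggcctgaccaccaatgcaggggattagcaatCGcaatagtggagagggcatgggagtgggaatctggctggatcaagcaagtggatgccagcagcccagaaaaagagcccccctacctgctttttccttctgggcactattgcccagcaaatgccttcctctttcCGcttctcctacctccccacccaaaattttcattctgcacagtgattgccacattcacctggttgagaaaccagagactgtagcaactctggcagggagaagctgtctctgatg

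The remaining raised genes of this rank were C1S, CST6, HYCC1 and ZNF626. C1S, a protease of the first complement component, measured 9.07 and 8.61, against 6.46 and 6.30 in shCont a, 7.02 and 7.0 in shCont b and 6.29 and 6.18 with the empty vector, which was 5.5-fold above set a. CST6, the secreted protease inhibitor cystatin E/M, measured 8.13 and 7.91 against 6.20 to 6.42 on all 6 control arrays, a rise of 1.62 ± 0.10 (limma adjusted p = 1.61e-06). HYCC1, whose product hyccin helps anchor a phosphatidylinositol kinase at the membrane, rose by 1.79 and 1.52 against the scrambled sets and by 0.76 against the empty vector. ZNF626, a zinc finger protein, measured 7.81 and 7.69 against 5.63 and 5.96 in shCont a and 6.39 and 5.63 in shCont b. With the empty vector ZNF626 stood at 6.95 and 7.25, so its change against that control was only 0.65 (limma adjusted p = 0.0372).

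**Figure D1:**
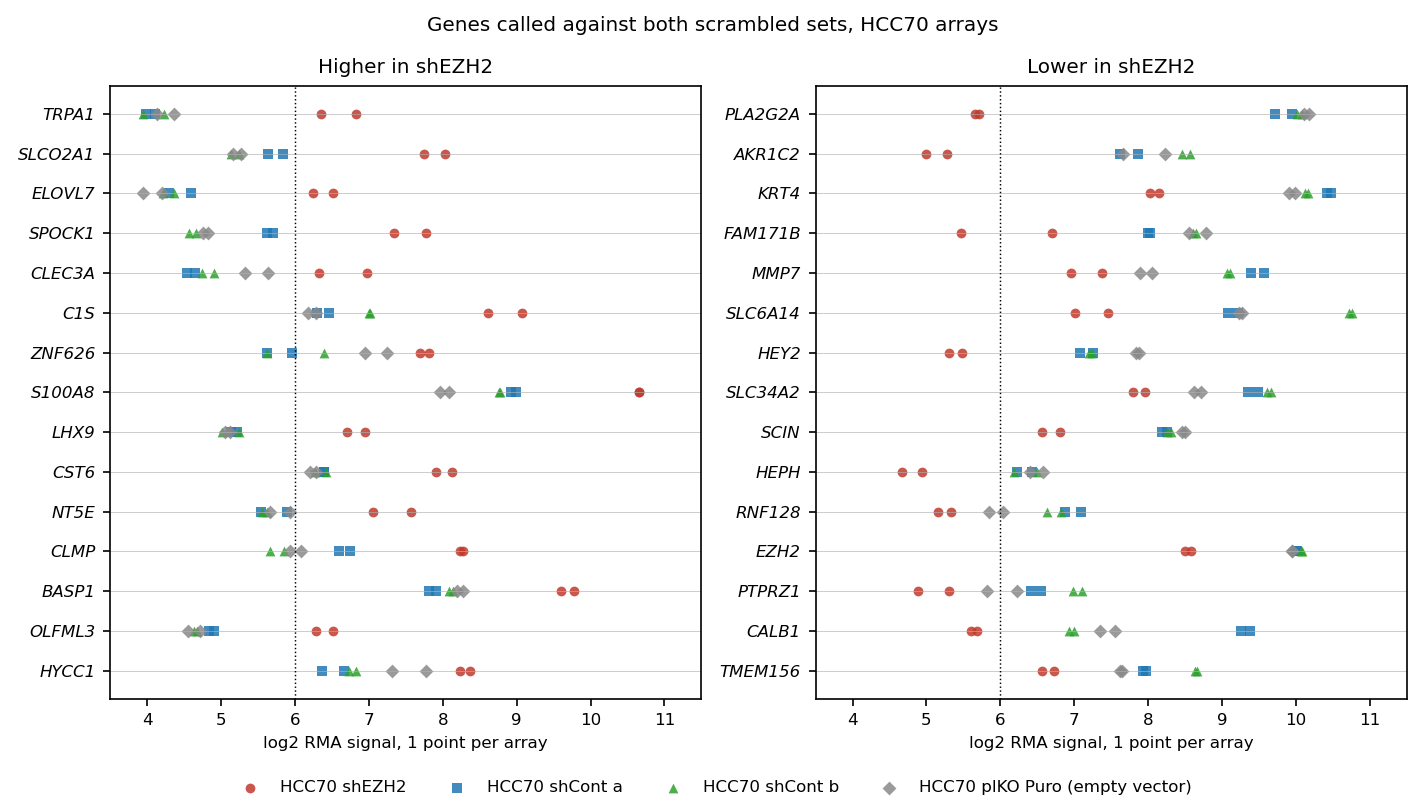
Log2 RMA signal (horizontal axis) of the 15 higher genes (left) and the 15 lower genes, EZH2 among them (right), 1 point per HCC70 array, with the floor of log2 6 as a dotted line. The shEZH2 points lie beyond all 6 control points in every row, which follows largely from how the genes were ranked. Of the higher genes, 8, TRPA1 and LHX9 among them, are above the floor only in shEZH2.

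Ranked by the smaller of its changes against the scrambled sets, the lowest gene was PLA2G2A, a secreted phospholipase that releases fatty acids from membrane lipids and kills Gram-positive bacteria. It measured 5.65 and 5.71 in shEZH2, against 9.95 and 9.72 in shCont a, 10.01 and 10.08 in shCont b and 10.10 and 10.18 with the empty vector. The 6 controls spanned less than 1 log2 unit, and shEZH2 lay 4.16 ± 0.12 lower than set a (17.9-fold, limma adjusted p = 4.38e-09) and 20.6-fold lower than set b. HEY2, a transcriptional repressor induced by Notch signaling, measured 5.48 and 5.30, against 7.25 and 7.08 in shCont a, 7.24 and 7.2 in shCont b and 7.87 and 7.83 with the empty vector. It fell below the floor in shEZH2, by 1.77 ± 0.11 against set a (limma adjusted p = 2.42e-06). Their promoter windows are shown because they contrast in CpG content. PLA2G2A lies at chr1:19979610-19979909 on the minus strand and holds 5 CpG. HEY2 lies at chr6:125749382-125749681 on the plus strand and holds 43 CpG.
PLA2G2A: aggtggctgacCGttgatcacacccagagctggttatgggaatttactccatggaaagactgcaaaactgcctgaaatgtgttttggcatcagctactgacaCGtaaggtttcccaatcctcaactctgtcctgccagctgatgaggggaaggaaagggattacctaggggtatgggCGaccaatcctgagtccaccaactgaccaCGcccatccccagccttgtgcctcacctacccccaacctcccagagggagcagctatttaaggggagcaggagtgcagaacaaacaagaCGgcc
HEY2: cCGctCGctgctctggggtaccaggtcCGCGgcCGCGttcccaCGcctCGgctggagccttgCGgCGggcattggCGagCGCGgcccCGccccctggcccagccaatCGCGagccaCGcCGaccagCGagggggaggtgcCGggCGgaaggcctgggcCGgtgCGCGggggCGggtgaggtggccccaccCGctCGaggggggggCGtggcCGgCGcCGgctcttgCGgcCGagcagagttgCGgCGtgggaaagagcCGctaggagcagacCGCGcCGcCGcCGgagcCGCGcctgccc

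KRT4, a keratin of mucosal squamous epithelium, measured 8.14 and 8.03 in shEZH2, against 10.47 and 10.42 in shCont a, 10.16 and 10.12 in shCont b and 9.90 and 9.98 with the empty vector, a fall of 2.36 ± 0.09 (limma adjusted p = 2.7e-08). MMP7, the epithelial metalloprotease matrilysin, measured 6.95 and 7.37, against 9.39 and 9.57 in shCont a and 9.06 and 9.10 in shCont b. With the empty vector MMP7 stood at 7.89 and 8.05, so its fall there was 0.81, against 2.32 and 1.92 from the scrambled sets. CALB1, the calcium buffer calbindin, differed widely between controls: it measured 5.68 and 5.60 in shEZH2, against 9.38 and 9.25 in shCont a, 6.99 and 6.93 in shCont b and 7.35 and 7.55 with the empty vector. Its fall was 3.68 against set a and 1.32 against set b, so the size depended on the control while the direction did not. RNF128, a ubiquitin ligase of the GRAIL type, fell by 1.73 and 1.48, and PTPRZ1, a receptor tyrosine phosphatase, by 1.39 and 1.96. SCIN, an actin-severing protein of the gelsolin family, fell by 1.54, and TMEM156, a membrane protein, by 1.31 against set a and 2.00 against set b. FAM171B measured 6.70 and 5.47, against 8.02 and 8.0 in shCont a and 8.64 and 8.61 in shCont b. Its shEZH2 replicates lay over 1 log2 unit apart, and its call was lost when only the arrays compared were fitted.

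AKR1C2, a reductase that inactivates dihydrotestosterone, measured 5.28 and 5.0 in shEZH2, against 7.86 and 7.62 in shCont a, 8.45 and 8.57 in shCont b and 7.66 and 8.22 with the empty vector, a fall of 2.60 ± 0.16 (limma adjusted p = 1.77e-06). Its near-identical neighbor AKR1C1 fell by 0.89 and 1.71, and signal shared between their probes was not examined. Of 6 aldo-keto reductases tested, these 2 fell and AKR1E2 rose by 0.57 against set a. SLC6A14, an importer of neutral and basic amino acids, measured 7.46 and 7.01, against 9.22 and 9.08 in shCont a, 10.76 and 10.71 in shCont b and 9.23 and 9.27 with the empty vector. SLC34A2, the sodium phosphate cotransporter of epithelia, measured 7.95 and 7.80, against 9.48 and 9.35 in shCont a and 9.61 and 9.66 in shCont b, and HEPH, a copper-dependent ferroxidase, fell by 1.52. ALDH1A1, a retinaldehyde dehydrogenase, measured 8.93 and 8.77, against 10.12 and 10.08 in shCont a and 10.02 and 10.01 in shCont b, but 9.09 and 9.22 with the empty vector. It was 1 of 3 aldehyde dehydrogenases that fell against set a among 16 tested, with ALDH2 (fall of 0.56) and ALDH5A1 (fall of 0.46), while ALDH18A1 rose by 0.38.

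Lists of genes by function were then read against the background of 936 higher and 492 lower among 11145 genes tested against set a (12.8% called, median change 0.02). Against set b the same genes gave 1394 higher and 1975 lower, and against the empty vector 1651 higher and 1376 lower. They were described by counts and medians only, and members named beyond the first 5 of a list were picked after their values were seen. Solute carriers were the largest list: of 219 tested, 18 rose and 26 fell against set a, 26 rose and 51 fell against set b, and 9 rose and 21 fell against both sets. Besides SLC6A14 and SLC34A2, SLC5A1, the intestinal sodium glucose cotransporter, fell to 5.44 and 4.84 in shEZH2, against 6.48 and 6.33 in shCont a and 8.40 and 8.31 in shCont b. SLC9A9, an endosomal sodium proton exchanger, rose by 1.31 against set a and 0.98 against set b, although its change against the empty vector was 0.17 (limma adjusted p = 0.398). The count of solute carriers called against set a was 44, and 17 or 21 without shCont a replicate 1 or 2. An interferon response list (52 of 70 higher and 1 lower against set a) and a mammary lineage list (6 of 44 higher and 11 lower) are given here as counts only.

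**Figure D2:**
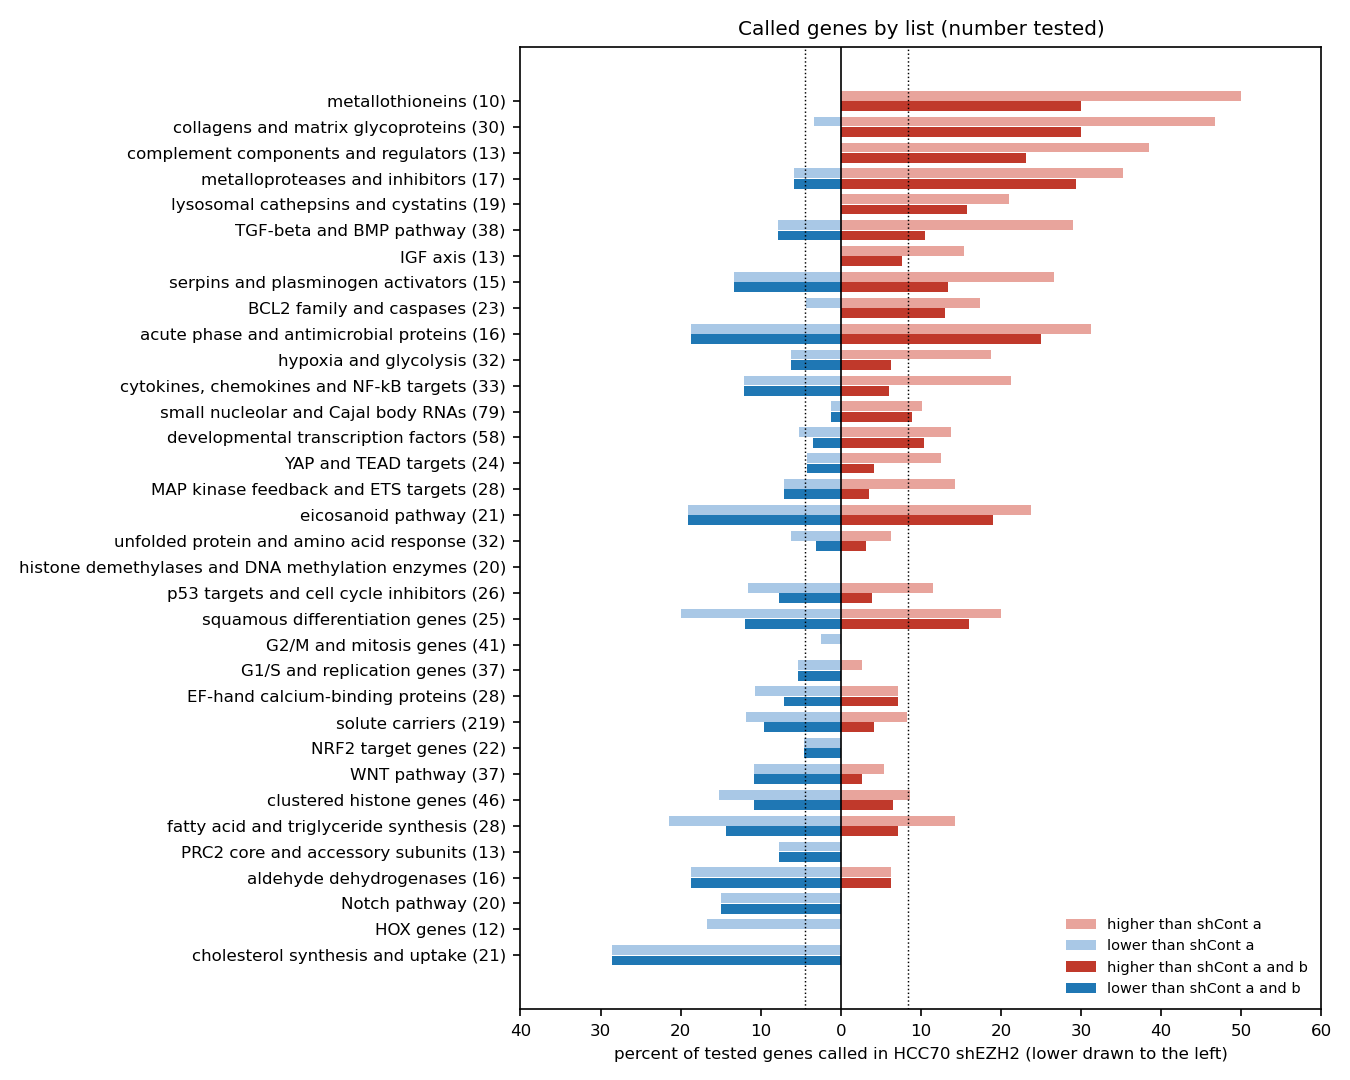
Percent of tested genes called in shEZH2 for each functional list with at least 10 tested genes, the interferon and lineage lists left out, higher to the right and lower to the left of zero, with pale bars for set a and dark bars for calls in the same direction against both sets. Dotted lines mark the percent of all tested genes called against set a (8.4% higher at the right). Among the lists drawn, metallothioneins and matrix genes extend farthest to the right, and cholesterol genes farthest to the left.

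Every called gene of cholesterol synthesis and uptake fell. Of 21 tested, 6 fell against set a and none rose, with a median change of −0.31, and against set b 15 fell and none rose, with a median of −0.70. The 6 fell against both sets: INSIG2, which retains the sterol sensor in the endoplasmic reticulum, TM7SF2, DHCR7, EBP and CYP51A1, which act in the later steps of the pathway, and ACAT2, which makes acetoacetyl-CoA. INSIG2 measured 8.90 and 9.02 in shEZH2, against 9.64 and 9.56 in shCont a, 10.13 and 10.17 in shCont b and 9.88 and 10 with the empty vector, a fall of 0.64 ± 0.09 (limma adjusted p = 0.000805). DHCR7 measured 10.57 and 10.38, against 10.98 and 10.86 in shCont a and 11.44 and 11.42 in shCont b. Against the empty vector 16 of 21 fell, with a median of −0.62. Set a thus lay between shEZH2 and the other controls for this list, and the count against it was 1 or 3 without shCont a replicate 1 or 2.

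Fatty acid and triglyceride genes split. Of 28 tested, 6 fell and 4 rose against set a, 11 fell and 3 rose against set b, and 4 fell and 2 rose against both sets. Enzymes that supply acetyl-CoA and build palmitate were among those that fell: ACLY, ACSS2 and FASN. FASN measured 8.35 and 8.17 in shEZH2, against 8.80 and 8.84 in shCont a and 9.06 and 9.05 in shCont b, a fall of 0.56 ± 0.16 (limma adjusted p = 0.0421). HSD17B12, which reduces the growing chain during elongation, fell by 0.39. ELOVL7 and PLIN2, which coats lipid droplets, rose against both sets, PLIN2 by 0.41 and 0.78. ACSL4 and FADS3 rose against set a (0.67 and 0.57), with changes of −0.01 and 0.03 against set b.

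**Figure D3:**
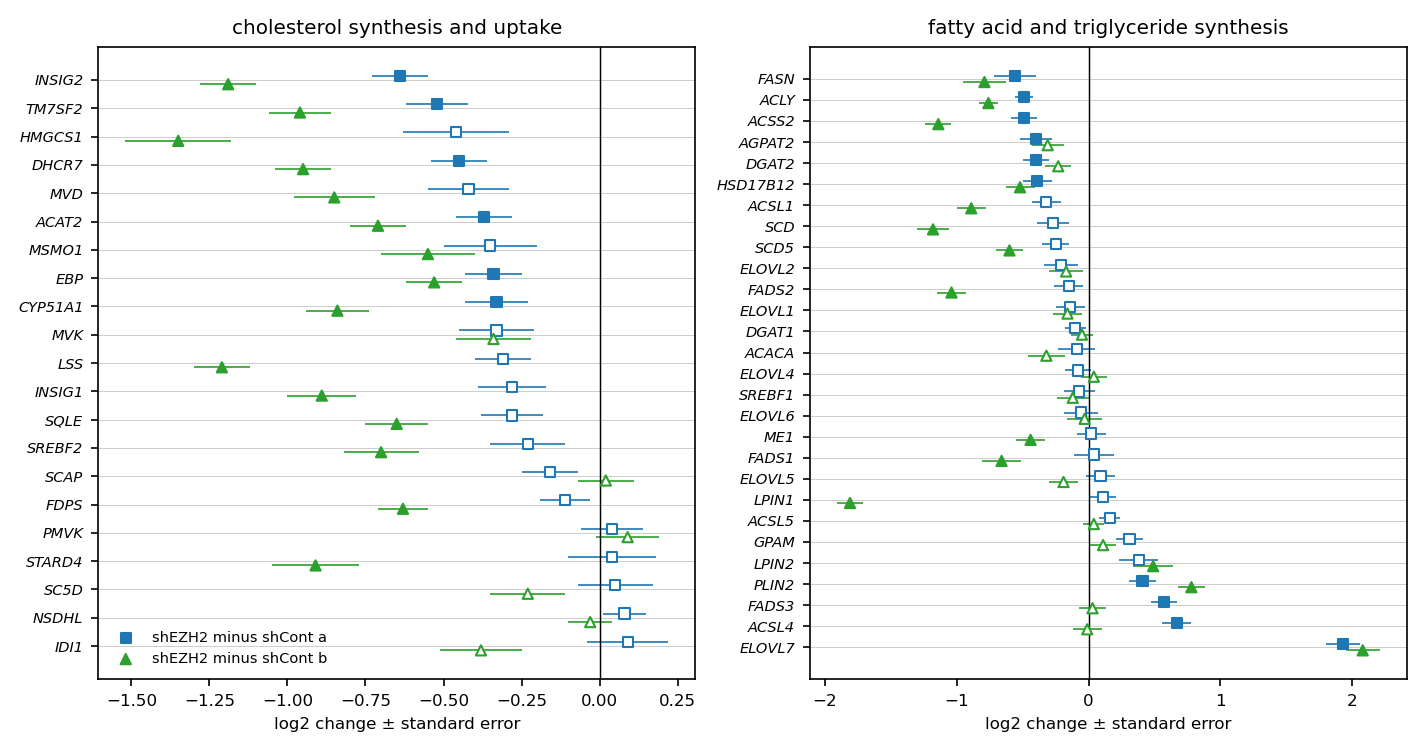
Log2 change ± standard error of every tested cholesterol gene (left) and fatty acid or triglyceride gene (right) in shEZH2 relative to shCont a (squares) and shCont b (triangles); filled symbols were called. Cholesterol genes lie left of zero and farther left against set b, and ELOVL7 stands alone near 2 on the right.

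The eicosanoid pathway, which turns membrane arachidonate into prostaglandins and leukotrienes, changed in both directions. Of 21 genes tested, 5 rose and 4 fell against set a, 5 rose and 5 fell against set b, and 4 rose and 4 fell against both sets. The genes that fell were PLA2G2A, PLA2G4A (fall of 0.77), which frees arachidonate in the cell, and PTGS2, the inducible cyclooxygenase, which measured 6.82 and 6.39 in shEZH2, against 7.38 and 7.43 in shCont a, 8.26 and 8.18 in shCont b and 8.03 and 8.20 with the empty vector. LTA4H, which makes leukotriene B4, also fell, by 0.47. SLCO2A1 rose, as did HPGD, the prostaglandin dehydrogenase, which rose by 0.49 and 0.70. PTGS1, the constitutive cyclooxygenase, and PTGES, a prostaglandin E synthase, also rose against both sets, by 0.48 and 0.24 against set a. ALOX5, which starts leukotriene synthesis, rose by 0.51 against set a, with a change of 0.14 against set b.

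Genes of the extracellular matrix rose more often than they fell. Of 30 collagens and matrix glycoproteins tested, 14 rose and 1 (LOX) fell against set a, with a median change of 0.25, 16 rose and 3 fell against set b, and 9 rose and 0 fell against both sets by limma. The 9 were SPOCK1, COL12A1, COL5A1, MFAP2, COL4A2, COL4A5, EFEMP1, COL6A1 and TGFBI. COL12A1, a fibril-associated collagen, measured 8.53 and 8.21 in shEZH2, against 6.63 and 6.53 in shCont a, 7.24 and 7.29 in shCont b and 6.88 and 6.88 with the empty vector, a rise of 1.79 ± 0.11 (limma adjusted p = 1.73e-06). FN1, the matrix protein fibronectin, showed how much rested on the control: it measured 9.11 and 8.93 in shEZH2 and 7.01 and 6.91 in shCont a, but 8.78 and 8.91 in shCont b and 8.97 and 8.83 with the empty vector. Its rise of 2.06 against set a was thus a change of 0.18 against set b (limma adjusted p = 0.414). THBS1, singled out after its values were seen, rose by 0.68 against set a and fell by 2.05 against set b. The fibroblast marker list stayed at a mean of 4.52 to 4.62 in shEZH2, against 4.46 to 4.48 in shCont a and 4.46 to 4.50 in shCont b. The count called against set a was 9 without either shCont a replicate.

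Matrix proteases and their inhibitors followed. Of 17 tested, 6 rose and 1 (MMP7) fell against set a, 5 rose and 6 fell against set b, and 5 rose and 1 fell against both sets. MMP2, a gelatinase, measured 7.59 and 7.38 in shEZH2, against 6.55 and 6.70 in shCont a, 5.61 and 5.47 in shCont b and 5.73 and 5.29 with the empty vector, a rise of 0.87 ± 0.14 (limma adjusted p = 0.00264). ADAM12 rose by 0.87, and the inhibitors TIMP2, TIMP3 and RECK rose by 0.50, 0.78 and 0.77 against set a. TIMP1 rose by 0.54 against set a and fell by 0.35 against set b. SERPINE2, an inhibitor of thrombin and plasminogen activators, measured 8.30 and 8.22, against 6.85 to 7.0 on all 6 control arrays, a rise of 1.31 ± 0.07 (limma adjusted p = 1.25e-06). Of 15 serpins and plasminogen activators, 4 rose and 2 fell against set a, and 5 rose and 7 fell against set b. KLK7, a stratum corneum protease, rose by 0.75 against set a, the only 1 of 6 kallikreins called there, while 5 of 6 rose against set b.

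Complement and antimicrobial genes depended on the scrambled set. Of 13 complement genes tested, 5 rose and none fell against set a, and 3 rose and 5 fell against set b. Of these, only C1S, C1R and C1RL, which lie side by side on chromosome 12, rose against both sets. C1R, the partner protease of C1S, measured 8.39 and 8.21 in shEZH2, against 6.85 and 6.72 in shCont a, 7.31 and 7.51 in shCont b and 7.36 and 7.31 with the empty vector. CFB rose by 1.46 against set a, and its change against set b was 0.23 (limma adjusted p = 0.0968). CLU rose by 0.95 against set a and fell by 0.56 against set b. Among 16 acute phase and antimicrobial genes, 5 rose and 3 fell against set a, with a median of 0.25, and 4 rose and 10 fell against set b, with a median of −0.43. In the same direction against both sets 4 rose and 3 fell. S100A9, the other calprotectin subunit, measured 9.49 and 10.05, against 8.70 and 8.77 in shCont a and 8.44 and 8.50 in shCont b, and S100A7 (psoriasin) measured 6.03 and 6.66, against 4.90 and 4.81 in shCont a and 4.23 and 4.51 in shCont b. SERPINA3 and CP, a protease inhibitor and a copper carrier of plasma, fell by 0.95 and 0.77. LTF (lactoferrin) rose by 2.57 against set a to 9.32 and 8.89, yet stood at 9.03 and 9.22 in shCont b.

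Inflammatory genes depended on the scrambled set. Of 33 cytokines, chemokines and NF-kB targets tested, 7 rose and 4 fell against set a, whereas 2 rose and 16 fell against set b. Against the empty vector 3 rose and 13 fell, closer to set b. CCL2, a monocyte attractant, measured 9.70 and 9.54 in shEZH2 and 7.81 and 8.03 in shCont a, against 9.85 and 9.84 in shCont b and 8.46 and 8.49 with the empty vector. IL6 measured 5.62 and 5.52, between 4.75 and 4.72 in shCont a and 7.14 and 6.93 in shCont b. Its rise of 0.83 against set a and its fall of 1.47 against set b were both called. ICAM1, a leukocyte adhesion molecule, rose by 1.24 against set a, with a change of −0.37 against set b (limma adjusted p = 0.119). In the same direction against both sets, IL1R1 and IL1RN rose, the receptor of interleukin 1 and its antagonist, and CXCL5, CXCL17, CCL28 and CX3CL1 fell, all 4 of them chemokines.

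Growth factor feedback genes showed a similar dependence. Of 28 MAP kinase feedback and ETS targets, 4 rose and 2 fell against set a, with a median of 0.08, and 1 rose and 15 fell against set b, with a median of −0.45. Against the empty vector 2 rose and 14 fell, with a median of −0.28, closer to set b. DUSP6, a phosphatase that switches off ERK, rose by 0.75 against set a and fell by 0.47 against set b, and JUN rose by 0.39 and fell by 0.80. ETV1, an ETS transcription factor, rose against every control: it measured 6.16 and 5.54 in shEZH2, against 4.23 and 4.03 in shCont a, 4.80 and 4.77 in shCont b and 4.50 and 4.52 with the empty vector. SPRY2, a feedback inhibitor of receptor tyrosine kinases, fell against both sets, by 0.38 and 1.34. Of 9 EGFR family members and ligands, 1 rose and 1 fell against set a, while none rose and 5 fell against set b, with a median of −0.83. The empty vector contrast was again closer to set b, with none higher, 5 lower and a median of −0.73. EGF fell against both sets, by 0.74 and 1.36, and EPGN rose by 1.03 against set a alone, with a change of −0.17 against set b.

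Developmental signaling genes changed in a minority of each list. Against set a 15% of Notch, 16.2% of WNT and 16.7% of YAP and TEAD genes were called, near 12.8% of all tested genes. For TGF-beta and BMP genes the share was 36.8%. Of all tested genes, 8.4% rose against set a. No Notch pathway gene rose among 20 tested, and HEY2, NOTCH3 (fall of 0.57) and NRARP, a feedback inhibitor of Notch (fall of 0.52), fell against both sets. In the WNT pathway, of 37 tested, 2 rose and 4 fell against set a, and 2 rose and 9 fell against set b. SFRP2, a secreted WNT antagonist, measured 7.52 and 7.04 in shEZH2, against 5.90 and 5.93 in shCont a, 6.93 and 6.59 in shCont b and 6.42 and 6.44 with the empty vector. FZD8 also rose against set a, by 0.66, while WNT5A, WNT5B, LGR4 and FZD7 fell against both sets. Of 38 TGF-beta and BMP genes, 11 rose and 3 fell against set a, whereas 6 rose and 11 fell against set b and 8 rose and 8 fell against the empty vector. BMP2, BMP1, FSTL1 and TGFBI rose against both scrambled sets, and the receptors BMPR1B and ACVR1 and the activin subunit INHBB fell against both. BMP2, a morphogen of the BMP family, measured 6.45 and 6.42, against 5.55 and 5.49 in shCont a and 5.86 and 5.76 in shCont b. PMEPA1 and TGFBR2 rose by 0.78 and 0.65 against set a, with changes of 0.03 and 0.07 against set b. Of 24 YAP and TEAD targets, 3 rose and 1 fell against set a, 1 rose and 12 fell against set b, and 3 rose and 9 fell against the empty vector. NT5E rose and VGLL1 fell against both scrambled sets.

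Developmental transcription factors, often marked by PRC2 in differentiated cells, were mostly not called. Of 58 tested, 8 rose and 3 fell against set a (19% called), 9 rose and 3 fell against set b, and 6 rose and 2 fell against both sets. LHX9, MSX2, GBX2, DLX3, MEIS2 and TBX20 rose against both, MSX2 to 7.35 and 7.19 in shEZH2, against 6.41 and 6.16 in shCont a and 6.88 and 6.83 in shCont b. FOXQ1 and IRX3 fell, by 0.54 and 0.47 against set a. TFAP2C rose by 0.54 against set a and fell by 0.50 against set b. Of 12 HOX genes, HOXB2 and HOXB7 fell against set a, by 0.49 and 0.28, while 2 rose and 1 fell against set b, and none was called in the same direction against both. Many members of this class were not tested because they stayed below the floor on nearly all arrays. A member dim in the other groups, such as LHX9, was tested only because it was high in shEZH2.

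Squamous differentiation genes, metallothioneins and ion channels gave further changes. Of 25 squamous genes, 5 rose and 5 fell against set a, and 7 rose and 7 fell against set b. SPRR2A, a cornified envelope precursor, measured 8.28 and 8.46 in shEZH2, against 7.05 and 7.29 in shCont a, 4.23 and 4.28 in shCont b and 5.01 and 5.21 with the empty vector, so that its rise was 1.21 against set a and 4.12 against set b. SPRR1A rose by 0.86 and 1.52, and KRT75 fell by 0.67 and 2.60. Of 10 metallothioneins, which bind zinc and copper, 5 rose and none fell against set a, with a median of 0.38, 3 rose and 1 fell against set b, and MT1M, MT1E and MT2A rose against both sets. MT1E measured 8.23 and 8.40, against 7.29 and 7.14 in shCont a and 7.19 and 7.49 in shCont b. These genes are near-identical, and shared probe signal was not examined. Of 7 TRP channels, TRPA1, TRPC1 and MCOLN1 rose against both sets and TRPV6 fell, TRPC1 by 1.59 against set a and 0.67 against set b.

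Some of the larger changes against set a were not called in the same direction against set b. SERPINA5, an inhibitor of activated protein C, measured 8.01 and 7.93 in shEZH2, against 6.37 and 6.32 in shCont a, 8.57 and 8.71 in shCont b and 8.81 and 8.88 with the empty vector. It thus lay between the scrambled sets, with a rise of 1.63 against set a and a fall of 0.67 against set b. ACADSB, a dehydrogenase of branched-chain acyl-CoA, rose by 1.18 against set a, with a change of 0.59 against set b (limma adjusted p = 0.072). ADH1C, an alcohol dehydrogenase, measured 5.04 and 4.91 in shEZH2, against 6.06 and 6.15 in shCont a, 5.30 and 5.52 in shCont b and 5.34 and 5.19 with the empty vector. ANO1, a calcium-activated chloride channel, fell by 0.82 against set a and rose by 0.39 against set b. S100A2, a calcium-binding protein of basal epithelium, CPNE8, a copine, and EFNA3, an ephrin ligand, fell by 1.03, 0.91 and 0.82 against set a, with changes of −0.35, −0.21 and −0.35 against set b.

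The CpG content of promoter windows was compared because PRC2 acts at CpG-rich promoters. The RefSeq table held a window for 394 of 494 genes called higher against both sets and for 281 of 340 called lower. Of the 15 higher and 15 lower genes named first, 8 and 14 had a window, and TRPA1 and SPOCK1 did not. An observed over expected CpG ratio above 0.6 was found in 290 of 394 higher genes (73.6%) and 199 of 281 lower genes (70.8%). Among all tested genes with a window it was found in 7579 of 9079 (83.5%). Median ratios were 0.78 for the higher genes, 0.80 for the lower genes and 0.85 for all tested genes. Among genes with a window that changed at least 2-fold against both sets, 20 of 33 higher (60.6%) and 12 of 26 lower (46.2%) passed 0.6. Both directions thus held fewer CpG-rich windows than the tested background, and no test was made. The windows printed above span this range: the ratio was 0.80 for LHX9, 0.10 for S100A8, 0.23 for PLA2G2A and 0.92 for HEY2. Over all 27305 windows in the table the share above 0.6 was 48.9%.

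**Figure D4:**
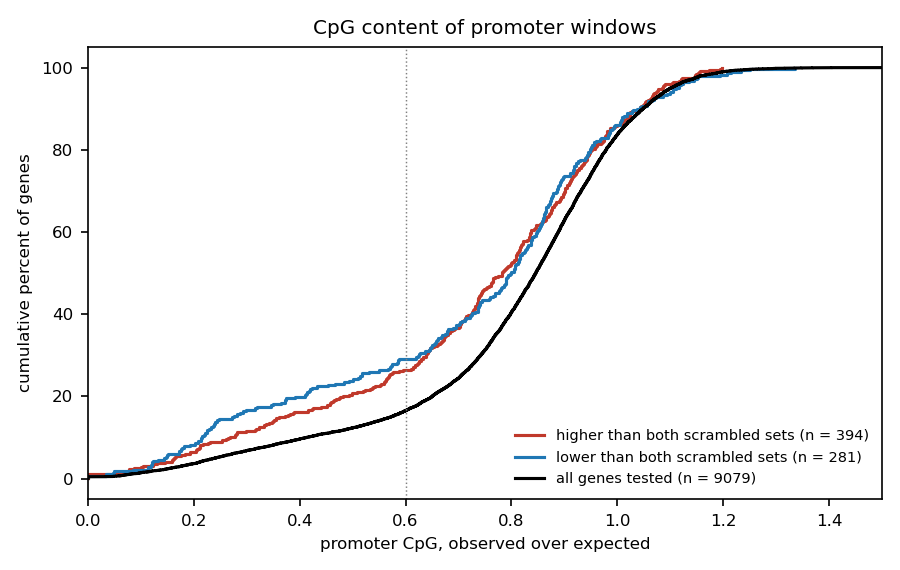
Cumulative percent of genes (vertical axis) by the observed over expected CpG ratio of the 300-base window around the gene's start (horizontal axis), for genes called higher and lower against both scrambled sets and for all tested genes. The red and blue curves run above the black one up to a ratio near 1, so both sets hold fewer windows past the dotted line at 0.6, 73.6% and 70.8%, against 83.5% of all tested genes.

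By position, zinc finger genes of chromosome 19 were described as a group picked out after values were seen, with no test. Of 162 tested genes with a ZNF symbol on chromosome 19, 54 rose and 0 fell against set a (33.3% higher, median change 0.32), and 48 rose and 4 fell against set b (29.6% higher, against 12.5% of all tested genes). In the same direction against both sets 34 rose (21.0%), against 4.43% of all tested genes. The empty vector contrast differed: 18 of the 162 were higher (11.1%, against 14.8% of all tested genes) and 9 lower (5.56%, against 12.3%), with a median of 0.06. Of 172 ZNF genes on other chromosomes, 13 rose and 2 fell against set a, and 8 rose and 38 fell against set b. Against the empty vector 16 of them rose and 21 fell. Of 686 other genes on chromosome 19, 43 rose and 21 fell against set a, and 91 rose and 57 fell against set b. Against the empty vector 119 of these rose and 49 fell. ZNF626 and its direct neighbor ZNF737 were both among the raised genes, ZNF737 by 1.11 and 1.26. ZNF genes share repeated sequence, and signal shared between their probes was not examined. Among whole chromosomes the share called higher against both sets was highest for chromosome 20, with 33 of 311 genes (10.6%), and chromosome 10, with 35 of 427 (8.2%). Against the empty vector 18.3% of chromosome 20 genes and 13.6% of chromosome 10 genes were higher, against 14.8% of all tested genes.

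**Figure D5:**
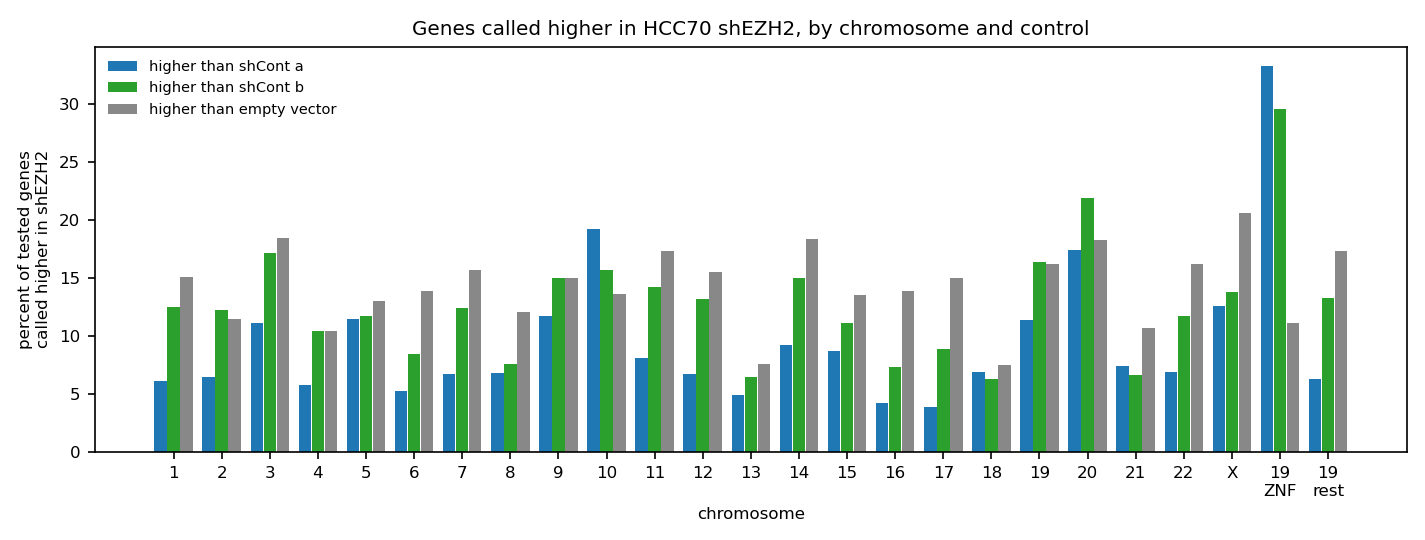
Percent of tested genes called higher in shEZH2 (vertical axis) by chromosome, with bars for comparison to shCont a, shCont b and the empty vector; the last groups split chromosome 19 into ZNF genes and the rest. The ZNF bars reach 33.3% and 29.6% against the scrambled sets and 11.1% against the empty vector.

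The other manipulations of the series were set beside these calls, with counts taken only where no array was shared. In MDA-MB-468, another basal-like line, EZH2 knockdown against its own scrambled control called 1343 clusters (8.3%), 442 higher (2.73%) and 901 lower (5.57%). Of the 602 clusters higher in HCC70 against both sets, 43 were higher in MDA-MB-468 (7.14% of the 602, 9.73% of the 442) and 53 lower. Of the 416 lower ones, 72 were lower there (17.3% of the 416, 7.99% of the 901) and 14 higher. SERPINE2, ETV1, SLCO2A1 and OLFML3 rose in both lines, by 1.20, 1.25, 0.91 and 0.47 in MDA-MB-468, and PLA2G2A and SLC34A2 fell in both, by 1.56 and 1.21 there. IGFBP5, TIMP3, S100A7, IL1R1 and BMP2, higher in HCC70 against both sets, fell in MDA-MB-468, by 2.8, 1.45, 0.99, 0.54 and 0.42. The direction of IGFBP5 in HCC70 depended on the control, with a change of −0.29 against the empty vector. TIMP3, S100A7, IL1R1 and BMP2 were higher against that control as well. ALDH1A1, lower in HCC70 against both sets, rose in MDA-MB-468 by 0.56.

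EED knockdown in HCC70 against set b called 2290 clusters (14.2%), 1072 higher (6.63%) and 1218 lower (7.53%). Its counts were compared with the calls of shEZH2 against set a only, so that no control was shared in them. Of 656 clusters lower in shEZH2, 278 were lower in shEED (42.4% of the 656, 22.8% of the 1218) and 22 higher, and of 1181 higher ones 274 were higher (23.2% of the 1181, 25.6% of the 1072) and 105 lower. KRT4, MMP7 and ALDH1A1 fell in shEED by 2.75, 2.17 and 2.89, and HYCC1, TRPC1 and MT1M rose by 1.07, 1.52 and 3.04. These genes had also been called in shEZH2 against set b, the control of shEED, so the choice favors agreement. HYCC1, for example, averaged 6.78 in set b and 7.54 with the empty vector. Other raised genes did not follow: LHX9, C1S, SLCO2A1, SPOCK1, S100A8, NT5E and CST6 were not called in shEED. COL12A1, TIMP3, SFRP2 and CCL2, higher in shEZH2 than in set a, went the other way against set b, with falls of 0.67, 0.77, 0.72 and 3.04. The controls differed too: the change of set a against set b was −0.68, −0.44, −0.84 and −1.93 for these genes. Against set b itself, CCL2 changed by −0.23 in shEZH2. How much of the opposite direction came from the switch of control was not tested. HEY2 also went the other way, with a rise of 1.18 in shEED. EZH2 cDNA against the empty vector called 158 clusters (0.977%), 147 higher (0.909%) and 11 lower (0.068%). EZH2 itself was not called there, with a change of 0.29 (limma adjusted p = 0.0961). Of the 416 clusters lower after knockdown, 32 were higher with EZH2 cDNA (7.69% of the 416, 21.8% of the 147), among them SLC6A14, SLC34A2, PTGS2 and TMEM156, by 0.90, 0.59, 1.05 and 0.70. None of the 602 higher clusters was lower with the cDNA by limma, while 10 were higher.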

How the data were processed

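RNA of 16 arrays in 8 groups of 2 was measured on Affymetrix Human Gene 1.0 ST arrays. Each deposited value is the log2 signal of a transcript cluster, which the authors obtained with RMA in Affymetrix Expression Console, per the submitters' processing notes. Software versions, the build and scan dates were not given in the sources used here, so batches could not be examined. They were used as deposited. Depth has no meaning for arrays: the 2 arrays per group limit the precision.

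Clusters at log2 6 or above on at least 2 of 16 arrays were tested with limma 3.58.1 (lmFit and eBayes, R 4.3.3) in 1 model of 8 group means, with Benjamini-Hochberg adjustment within each comparison and a threshold of 0.05. Pooling all groups lends each pair the spread of all duplicates. The test was checked on simulated data. Probe names came from the platform annotation and were matched to RefSeq by gene ID. A gene with several tested clusters was represented by the brightest.

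Named genes were EZH2 and EED, the 15 higher and 15 lower genes called against both scrambled sets with the largest smaller change, the 5 higher and 5 lower with the largest change against set a alone, and up to 5 called members per list; others were picked after their values were seen. Members and lists were chosen with earlier results of these data known. Replicate numbers were not used to pair the samples: deviations of same-numbered arrays correlated at 0.077 with set a, 0.052 with set b and −0.251 with the empty vector. Such correlations cannot exclude pairing.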

Additional observations from a re-analysis of the deposited data

Results flagged for a closer look

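The effect of EZH2 knockdown was compared between HCC70 (against set a) and MDA-MB-468 by an interaction contrast in limma for 41 named genes, and 35 differed at an adjusted p under 0.05. The values are the log2 change in HCC70 minus that in MDA-MB-468. The knockdown itself did not pass the test, with a difference of 0.21 for EZH2 (limma adjusted p = 0.189). The genes were picked for their changes in HCC70, so larger effects there follow from the choice.

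Among genes higher in HCC70 shEZH2 cells, the difference between lines was TRPA1 2.52, C1S 2.53, S100A8 2.11, ZNF626 2.01, CLEC3A 2.00 and HYCC1 1.82. It was SPOCK1 1.71, CST6 1.58, BASP1 1.57, NT5E 1.53 and LHX9 1.51 for further genes of that kind. For the remaining ones it was CLMP 1.27, ELOVL7 1.26, SLCO2A1 1.24 and OLFML3 1.06. Genes called higher against set a, without the same call against set b, gave ACADSB 2.03, SERPINA5 1.66, CFB 1.66, CCL2 1.48 and ICAM1 1.23.

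Among genes lower in HCC70 shEZH2 cells, the difference was CALB1 −3.53, PLA2G2A −2.60, MMP7 −2.43, AKR1C2 −2.30 and SLC6A14 −2.25. The next were KRT4 −1.98, RNF128 −1.90, FAM171B −1.86 and HEY2 −1.64. Smaller differences were HEPH −1.43, PTPRZ1 −1.13, SCIN −1.01 and TMEM156 −0.96. Genes called lower against set a, without the same call against set b, gave ADH1C −1.64 and ANO1 −0.69. Of the 35 genes, 14 did not reach log2 6 in either group of MDA-MB-468, TRPA1, C1S, LHX9, HEY2 and CALB1 among them, and 7 were called in MDA-MB-468 in the same direction as in HCC70.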

How the results depend on the processing

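Against set a, 1837 clusters were called; fitting the arrays compared alone gave 276, both scrambled sets as control 3048 and the empty vector 3977, and leaving out 1 array gave 688 to 1977. Against set b (4325), the arrays alone gave 2143 and leaving out 1 array 2195 to 4806. The same-direction count (1018) was 181 with the arrays alone and 468 to 1056 with 1 array left out. With the replicate number as a block, although the numbers were not shown to pair the samples, the counts were 1271, 3814 and 738, and EZH2 changed by −1.47. EZH2 lay between −1.51 and −1.42 with 1 array left out. Centring arrays on their medians gave 1047 higher and 2901 lower against set b, 26.5% higher against 42.4% before, and 361 higher and 359 lower against both sets. Fitting the arrays alone uses fewer samples and cost 88 of 196 gene calls or values; other causes were not tested. With both scrambled sets as control the direction turned for EED (0.08), IL6 (−0.32), PAPPA (0), JUN (−0.21) and F3 (−0.27). With the empty vector it turned for EED 0.27, SERPINA5 −0.87, ANO1 0.42, TFAP2C −0.59, HOXB2 0.12, HOXB7 0.24, CLU −0.82, IL6 −1.07, ALOX5 −0.03, ACSL4 −0.02, PLAUR −0.24, ANXA9 −0.16, PAPPA −0.38 and IGFBP5 −0.29. It also turned for EPGN −0.60, DUSP6 −0.27, JUN −0.97, ACVR2A −0.14, F3 −0.90, TEAD1 −0.11, TP53INP1 −0.25, CDKN1A −0.06, CASP14 −0.48, BCL2L15 0.73, PFKFB3 −0.23, NUPR1 −0.20 and CTSD −0.06. Signal over background was not measured here, so the limit it sets on dim genes is unknown.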

Other observations

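Small nucleolar RNAs guide modification of ribosomal RNA. Of 79 tested, 8 rose and 1 fell against set a (11.4% called, against 12.8% of all genes), 15 rose and 17 fell against set b, and 7 rose and 1 fell against both. SNORD41 averaged 7.35 in shEZH2, 5.76 in shCont a and 5.95 in shCont b, a rise of 1.59 (limma adjusted p = 0.00283), and SNORD57 rose by 0.98. SCARNA12, a Cajal body RNA, fell by 0.59. Of 46 clustered histone genes, 4 rose and 7 fell against set a and 6 rose and 12 fell against set b, and H4C3 fell by 0.80 while H2AC25 rose by 0.98; these genes are near-identical, and shared probe signal was not examined.

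Proliferation genes were little changed against set a. Of 41 G2/M genes, only MAD2L1 was called there (fall of 0.49), while 4 rose and 4 fell against set b. Of 37 G1/S genes, 1 rose and 2 fell against set a, and 2 rose and 7 fell against set b. Against set a 2.44% of the G2/M genes and 8.11% of the G1/S genes were called, against 12.8% of all genes tested. Over all 11145 genes tested, 1394 rose and 1975 fell against set b. E2F2 and RFC3 fell by 0.70 and 0.29 against set a and also fell against set b. MCM10 rose by 0.22 against set a, with a change of −0.01 against set b. Among BCL2 family members and caspases, CASP10, BMF and CASP4 rose by 0.79, 0.52 and 0.41 against set a and by 1.44, 0.85 and 0.62 against set b. BNIP3, a mitophagy receptor induced by hypoxia, averaged 7.70 in shEZH2, 6.53 in shCont a and 6.75 in shCont b, and its change against the empty vector was 0.24. HK2, a hexokinase, and CA12, a carbonic anhydrase, fell by 0.49 and 0.52 against set a. TP53INP1 and CDKN1A, targets of p53, rose by 1.02 and 0.48 against set a, with changes of 0.30 and −0.01 against set b. The lysosomal proteases CTSL and CTSZ rose by 0.41 each, and PRAME, a cancer-testis antigen, by 0.42 against set a and 0.83 against set b.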
